A study of Mus musculus with 43 samples.

Results

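The 46 genes described here encode the machinery that copies DNA and the regulators that start S phase, and they were taken by symbol from a fixed list. All 46 were present once in each deposited table, among 24327 symbols in the table of the genetic experiments and 25080 in the drug table. By role they comprise 3 G1/S regulators, 4 origin loading and licensing factors, the 6 subunits of the MCM2-7 helicase and 6 factors that activate it. The others are 9 subunits of polymerases and primase, 6 of the sliding clamp and its loader, 3 of the single-strand binding protein RPA, 2 Okazaki fragment enzymes, 4 enzymes of nucleotide supply and 3 chromatin factors of the fork. All 46 passed the minimum mean level of 1 in each of the 3 experiments, so every member was tested in every comparison.

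RNA was sequenced from mouse embryonic fibroblasts (MEFs), which the labels call a cell line, in 43 libraries. In the first experiment the cells received Son siRNA with tunicamycin, control siRNA with tunicamycin, Son siRNA with DMSO or control siRNA with DMSO, with 4 libraries in each group. In the second, the CRISPR activation (CRISPRa) experiment, they carried Son sgRNA, whose genotype label adds Son overexpression, or control sgRNA and received tunicamycin or DMSO, with 3 libraries in each of the 4 groups. In the third, wild-type cells were kept for 24 h in 3 µM nintedanib, 1 µM ponatinib, 3 µM proflavine hemisulfate, 1 µM pyrvinium pamoate or DMSO, with 3 libraries each. Son is a splicing cofactor of nuclear speckles. Tunicamycin blocks N-linked glycosylation and causes endoplasmic reticulum stress, nintedanib and ponatinib inhibit tyrosine kinases, proflavine is a DNA-binding acridine and pyrvinium is an anthelmintic. The labels give no dose or time for tunicamycin. They do not say whether replicates came from separate cultures, so p-values speak only of the spread among the libraries at hand, which may be technical. Columns of the drug experiment are named brep with a number, without saying what brep means.

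DNA replication is licensed in G1, when the origin recognition complex, Cdc6 and Cdt1 load the MCM2-7 helicase onto origins. Cyclin E with its kinase, and the release of E2F factors from the retinoblastoma proteins, then open S phase. Cdc45 and the GINS complex turn the loaded helicase on, the polymerases copy the strands behind it on the clamp Pcna, and Fen1 and Lig1 join the lagging strand. Many of these genes are textbook E2F targets whose mRNA peaks at the G1/S border. In bulk RNA, fewer cells in S phase and less RNA in each cell cannot be told apart.

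The genetic experiments were deposited as FPKM (fragments scaled to transcript length and library size) and the drug experiment as TPM (transcript abundance scaled to the same total in each library), so levels were compared only within an experiment. Depth, read from the smallest steps of the FPKM values, lay between 0.905 and 1.21 times that of 1 library. TPM keeps no depth, which is unknown for the drug libraries. Of 9 fibroblast markers, 5 reached a mean of 1 in the siRNA, 6 in the CRISPRa and 7 in the drug experiment. Col1a1, Col3a1 and Vim were abundant in all 3 experiments. Col3a1 had 25.8, 29.8 and 25.7 FPKM with Son sgRNA in DMSO, against 91.2, 100.1 and 96.0 FPKM with control sgRNA. Col1a2 reached a mean of 1 in the drug experiment only and Pdgfra in the CRISPRa and drug experiments, while Thy1 and Lum did not in any. That mean was reached by 0 of 4 endothelial and 0 of 3 neuronal markers in any of the experiments. Of 3 adipocyte markers Fabp4 reached it in all 3 experiments, and of 4 muscle markers Des did in the CRISPRa and drug experiments. Of 5 macrophage and leukocyte markers, Cd68 reached it in all 3 experiments and Lyz2 in the drug experiment only, and of 5 epithelial markers only Krt14 did, in the drug experiment, through nintedanib library 3 (12.8 TPM) with at most 1.57 TPM in each other library. Son had 15.1, 15.8, 16.8 and 14.1 FPKM with Son siRNA in tunicamycin and 36.5, 35.02, 37.0 and 35.5 FPKM with control siRNA in tunicamycin, and 20.8, 21.6, 23.1 and 21.5 FPKM against 42.6, 43.1, 44.9 and 43.3 FPKM in DMSO. The libraries labelled Son sgRNA had 45.3, 35.03 and 42.4 FPKM against 42.4, 41.2 and 43.7 FPKM with control sgRNA in tunicamycin, and 51.9, 44.6 and 29.8 FPKM against 46.4, 47.5 and 48.3 FPKM in DMSO. Son was therefore lower in every Son siRNA library, but the libraries labelled Son sgRNA were not uniformly higher, and results on them are given under that label. Library C of Son sgRNA in DMSO had the lowest Son value and stood apart in other genes too.

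Because E2F sites are the classical control element of this group, the promoters were read from RefSeq (GRCm38.p6, 250 bases before to 50 after the annotated start). The table held 44 promoters of 38 of the 46 members. An E2F site was searched on both strands as TTTCGCGC, TTTGGCGC, TTTCCCGC or TTTGCCGC, which can overlap each other. It was found in 15 of the 44 promoters (34.1%), against 744 of all 32851 promoters (2.26%). A CCAAT box was found in 56.8% of the members' promoters and 37.4% of all. The CHR element TTTGAA of late cell-cycle genes was found in 11.4% of the members' promoters and 17.9% of all. A match describes the letters in this window only. These 4 windows are shown 5′ to 3′ because 2 hold a match (Mcm5, a helicase subunit, and Cdc6, a helicase loader) and 2 do not (E2f1, an E2F factor itself, and Ccne1, cyclin E1), and all 4 genes are followed below. The windows rest on the RefSeq start. Those of E2f1 and Cdc6 lie wholly inside the genes as GENCODE annotates them. Both windows therefore leave the promoter at the GENCODE start unread, and the Cdc6 match lies downstream of that start. Capitals mark the E2F matches.
Mcm5, chr8:75109259-75109558, plus strand: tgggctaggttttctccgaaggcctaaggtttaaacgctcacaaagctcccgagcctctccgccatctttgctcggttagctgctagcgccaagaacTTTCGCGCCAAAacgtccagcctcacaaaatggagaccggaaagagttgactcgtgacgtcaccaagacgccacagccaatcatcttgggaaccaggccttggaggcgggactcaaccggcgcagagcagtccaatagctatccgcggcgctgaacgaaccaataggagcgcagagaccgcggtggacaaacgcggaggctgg
Cdc6, chr11:98907901-98908200, plus strand: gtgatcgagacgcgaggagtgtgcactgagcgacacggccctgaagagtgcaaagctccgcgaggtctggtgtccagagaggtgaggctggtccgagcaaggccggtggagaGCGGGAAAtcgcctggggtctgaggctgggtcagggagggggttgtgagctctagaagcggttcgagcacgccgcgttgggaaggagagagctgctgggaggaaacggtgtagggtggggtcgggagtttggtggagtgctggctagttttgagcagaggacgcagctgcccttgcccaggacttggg
E2f1, chr2:154569377-154569676, minus strand: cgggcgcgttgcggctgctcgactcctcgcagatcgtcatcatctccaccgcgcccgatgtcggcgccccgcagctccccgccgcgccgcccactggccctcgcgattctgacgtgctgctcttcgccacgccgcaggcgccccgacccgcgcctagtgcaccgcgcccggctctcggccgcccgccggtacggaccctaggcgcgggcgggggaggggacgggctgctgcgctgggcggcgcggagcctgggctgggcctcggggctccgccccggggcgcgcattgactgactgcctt
Ccne1, chr7:38107441-38107740, minus strand: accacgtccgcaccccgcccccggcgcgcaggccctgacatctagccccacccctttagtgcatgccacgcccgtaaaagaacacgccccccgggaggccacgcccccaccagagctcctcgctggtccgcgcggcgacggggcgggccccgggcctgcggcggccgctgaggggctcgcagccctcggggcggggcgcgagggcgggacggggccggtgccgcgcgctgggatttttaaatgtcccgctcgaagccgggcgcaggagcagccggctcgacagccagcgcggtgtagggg
In Mcm5 the capitals hold 2 overlapping matches that start at bases 98 and 102, counted from 1 at the 5′ end, and CCAAT occurred 3 times. In Cdc6 the match at base 113 lies on the opposite strand.

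**Figure D1:**
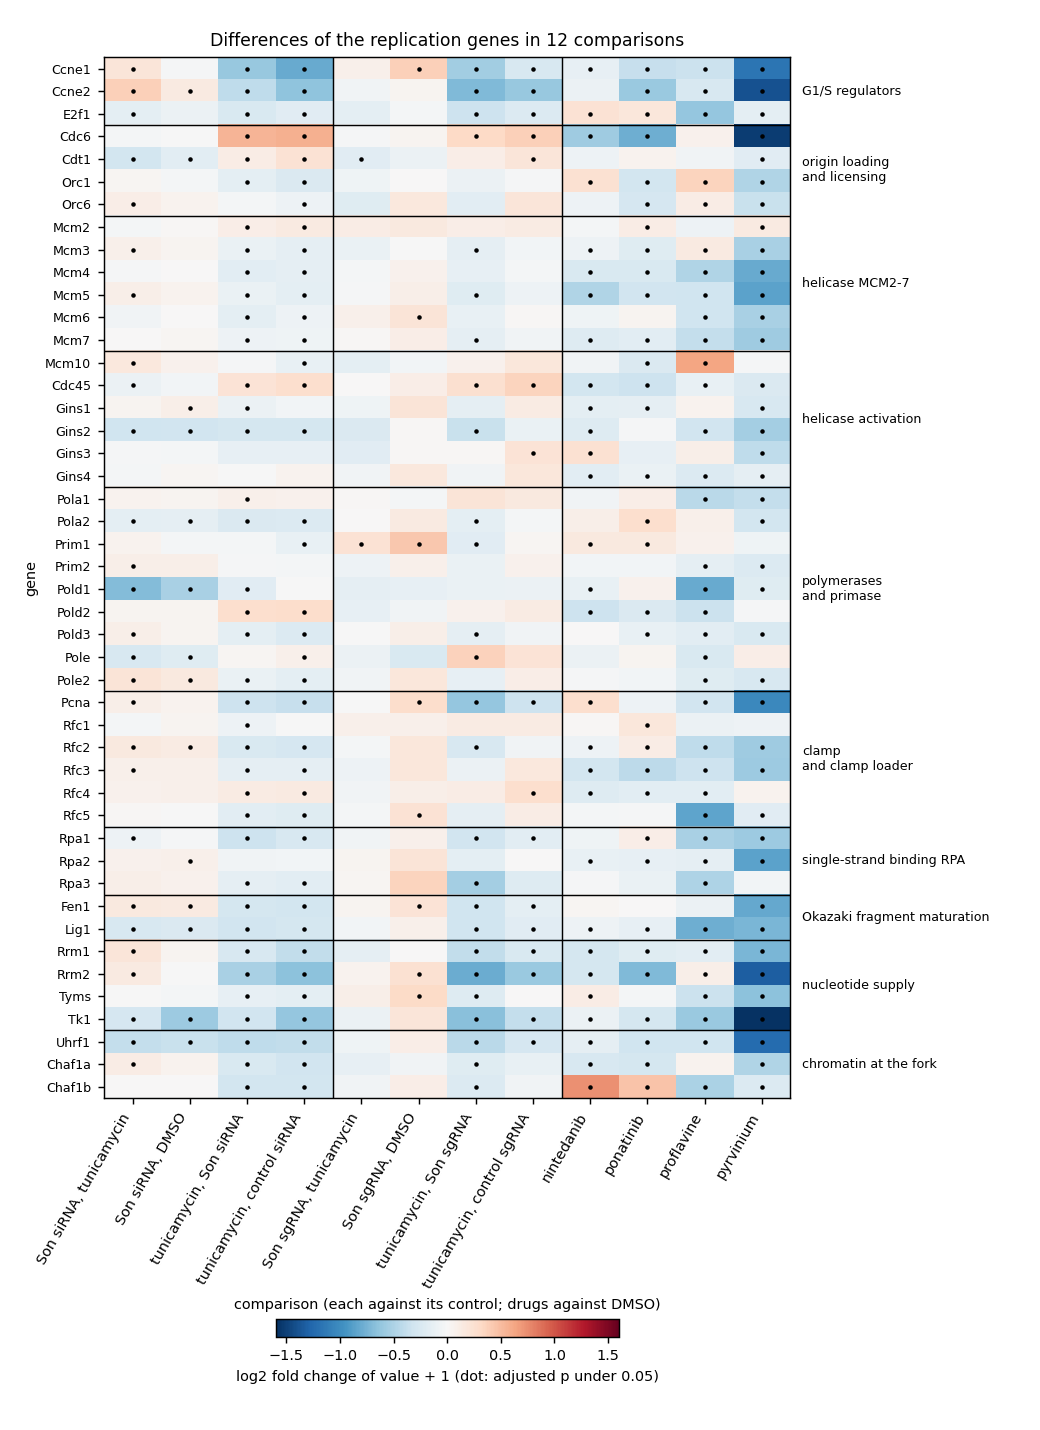
Log2 fold changes of the 46 genes (rows, by role) in 12 comparisons (columns: siRNA experiment, CRISPRa experiment, drugs). Each column is the named treatment against its control on the log2(value + 1) scale, red is higher, blue is lower and a dot marks a limma adjusted p under 0.05. The pyrvinium column holds the deepest blue, with 38 genes lower, and the Son siRNA columns are paler.

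Pyrvinium, a cationic dye used against pinworm, lowered more replication genes than any other of the 4 drugs. It lowered 38 of the 46, against 40.8% of the 12132 genes tested, and raised 1, Mcm2, against 36.6%. The members' median log2 fold change was -0.44, that of all genes tested -0.032, and 7 members fell by 1 or more on the log2 scale. Those 7 were Tk1, Cdc6, Ccne2, Rrm2, Uhrf1, Ccne1 and Pcna. How many of all genes tested fell that far was not counted. Of the 4 drug groups, pyrvinium held the lowest level of 31 of the 46 members and proflavine that of 12. Which drug held the lowest level was not counted over all genes tested.

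Tk1, thymidine kinase 1 of the salvage route to dTTP (chr11:117815526-117826092, minus strand), had 75.4, 77.7 and 73.6 TPM with pyrvinium and 222, 234 and 229.8 TPM with DMSO. All 3 pyrvinium libraries lay far below the DMSO libraries, and the log2 fold change was -1.58 ± 0.03 (SE, limma adjusted p = 8.6e-15). Rrm2, the small subunit of ribonucleotide reductase, had 89.3, 89.4 and 81.9 TPM with pyrvinium against 221, 219 and 215 TPM with DMSO, a log2 fold change of -1.32 ± 0.04 (SE, limma adjusted p = 1.1e-13). Its values did not overlap either. With Tyms and Rrm1 also called, all 4 genes of nucleotide supply fell.

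Among the G1/S regulators, both E-type cyclins had larger fold changes than the transcription factor E2f1. Ccne2, cyclin E2 (chr4:11191351-11204779, plus strand), had 16.2, 15.7 and 13.9 TPM with pyrvinium and 42.6, 41.5 and 40.5 TPM with DMSO, a log2 fold change of -1.39 ± 0.06 (SE, limma adjusted p = 8.3e-12). Ccne1 had 20.4, 18.3 and 18.2 TPM with pyrvinium against 44.4, 42.6 and 44.4 TPM with DMSO, and its log2 fold change was -1.17 ± 0.05 (SE, limma adjusted p = 1.7e-11). E2f1 had 64.3, 59.8 and 57.4 TPM with pyrvinium and 66.5, 67.8 and 67.5 TPM with DMSO, which gave -0.15 ± 0.04 (SE, limma adjusted p = 0.005). All 3 genes were lower in every pyrvinium library, the cyclins by a wide margin and E2f1 by a narrow one.

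The licensing factors differed in size. Cdc6 (chr11:98907801-98923940, plus strand), which helps to load the helicase, had 12.8, 14.8 and 10.8 TPM with pyrvinium and 38.2, 37.2 and 38.9 TPM with DMSO, a log2 fold change of -1.51 ± 0.08 (SE, limma adjusted p = 1e-10). Cdt1, its partner in loading, had 115, 110.4 and 110.2 TPM with pyrvinium and 126, 124 and 131 TPM with DMSO, and fell by less, with -0.18 ± 0.04 (SE, limma adjusted p = 0.00022). Orc1 and Orc6, subunits of the origin recognition complex, fell with -0.48 and -0.35. None of the 4 genes had overlapping groups. Here and in the other comparisons, the share of all genes tested whose groups did not overlap was not counted.

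The helicase subunits did not move together. Mcm5 had 135, 137 and 128 TPM with pyrvinium and 242, 242 and 244 TPM with DMSO (-0.86 on the log2 scale). Mcm3 had 173, 175 and 175 TPM against 251, 247 and 256 TPM (-0.52), and Mcm4 had 131, 128 and 124 TPM against 221, 223 and 228 TPM (-0.81). Mcm6 had 239, 228 and 223 TPM with pyrvinium against 321, 328 and 341 TPM with DMSO (-0.52), and Mcm7 had 251, 254 and 231 TPM against 365, 361 and 371 TPM (-0.57). These 5 subunits were lower in every pyrvinium library than in every DMSO library. Mcm2 had 318, 329 and 301 TPM with pyrvinium and 280.2, 283 and 297 TPM with DMSO, a log2 fold change of 0.14 ± 0.05 (SE, limma adjusted p = 0.015). That call was lost without DMSO library 1 (adjusted p = 0.055) or without pyrvinium library 2 (adjusted p = 0.068), and it was the only pyrvinium call of the 39 lost when a library was left out. So 5 subunits of one complex fell and the remaining one was called higher.

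Behind the helicase, Pcna, the sliding clamp, had 481, 478 and 433 TPM with pyrvinium and 918, 957 and 975 TPM with DMSO, a log2 fold change of -1.03 ± 0.04 (SE, limma adjusted p = 1.6e-12). Of the 5 clamp loader subunits, Rfc2, Rfc3 and Rfc5 fell (-0.57, -0.58 and -0.18), while Rfc1 and Rfc4 did not pass the test (-0.08 and 0.05). Fen1 and Lig1, which finish the lagging strand, fell with -0.81 and -0.73. Of the polymerase and primase subunits 6 of 9 fell, between -0.19 for Pold1 and -0.38 for Pola1, with Prim1, Pold2 and Pole not called. Among the helicase activators, Gins1 (-0.25), Gins2 (-0.55), Gins3 (-0.40), Gins4 (-0.15) and Cdc45 (-0.23) fell and Mcm10 (-0.02) was not called. Rpa1 and Rpa2 fell with -0.58 and -0.86, and Rpa3 (-0.05) was not called. Uhrf1, which carries DNA methylation through the fork, had 99.8, 102 and 92.5 TPM with pyrvinium and 232, 229 and 234 TPM with DMSO (-1.23 ± 0.04 SE, limma adjusted p = 4.9e-13). Chaf1a and Chaf1b, the CAF-1 histone chaperone, fell with -0.49 and -0.21.

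Other genes of the cycle moved in the same libraries. Of 54 further replication and S phase genes, 36 fell and 12 rose with pyrvinium (median -0.26), and 38 of 38 mitosis and G2/M genes fell (median -0.55). Of 14 D-type cyclins, their kinases, inhibitors, pocket proteins and the E2F factors E2f4 and E2f5, 10 fell and 3 rose (Ccnd2, Rb1 and E2f5). Summed over 9 fibroblast markers, the level was 897 to 1058 TPM with pyrvinium and 5107 to 5143 TPM with DMSO, and that of 3 adipocyte markers was 0.875 to 1.86 TPM with pyrvinium and 18.5 to 26.6 TPM with DMSO. Summed over 5 macrophage and leukocyte markers it was 10.5 to 14.5 TPM with pyrvinium and 5.80 to 6.79 TPM with DMSO. The part of these differences in the replication genes was not tested. Among the 38 members with a promoter in the table, the 15 with an E2F site had a median log2 fold change of -0.52 with pyrvinium and were all called lower, and of the 23 without one 16 were called lower and 1 higher (median -0.30). The medians with and without a site were -0.32 and -0.17 with proflavine, -0.14 and -0.10 with ponatinib, and -0.084 and -0.061 with nintedanib. The order was the other way in tunicamycin, at -0.14 and -0.19 with control siRNA and -0.13 and -0.17 with Son siRNA. There the medians were -0.022 and -0.033 with control sgRNA and -0.12 and -0.19 with Son sgRNA. The part of the sites was not tested.

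**Figure D2:**
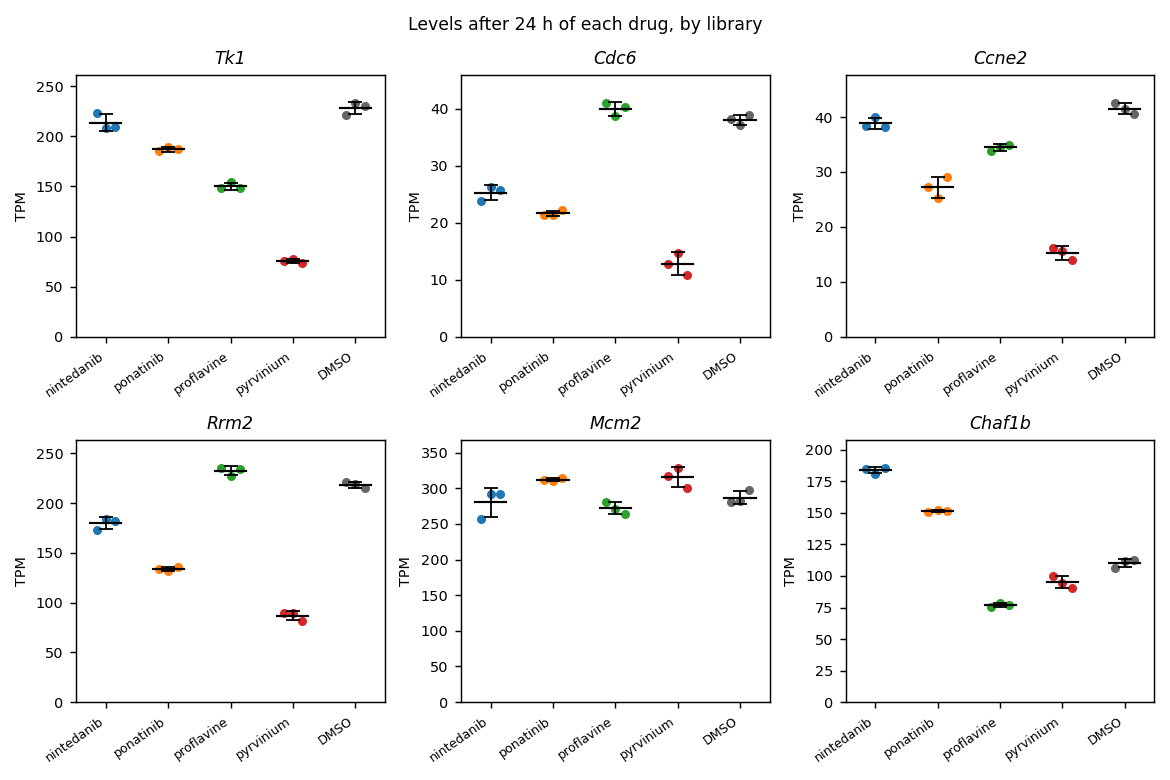
TPM of 6 replication genes in each drug library (points, 3 per group), with the mean (line) and SD (bars), DMSO at the right. Tk1, Cdc6, Ccne2 and Rrm2 are lowest with pyrvinium, Mcm2 is not, and Chaf1b is above DMSO with nintedanib and ponatinib and below it with proflavine.

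With proflavine, the lowest fold changes were those of a clamp loader subunit, a polymerase subunit and the ligase. It lowered 31 of the 46, against 42.4% of all genes tested, and raised 5, against 27.8%. The members' median was -0.23 and that of all genes -0.089. With the libraries scaled by their median ratio the split was 10 higher and 27 lower. Rfc5, a clamp loader subunit, had 65.2, 63.7 and 66.5 TPM with proflavine and 117, 117 and 118 TPM with DMSO, and its log2 fold change of -0.84 ± 0.06 (SE, limma adjusted p = 5.7e-09) was the lowest of the 46. Pold1, the catalytic subunit of polymerase delta (chr7:44532746-44548849, minus strand), had 40.6, 38.8 and 37.7 TPM with proflavine and 67.4, 71.3 and 68.6 TPM with DMSO, a log2 fold change of -0.81 ± 0.04 (SE, limma adjusted p = 3.8e-10). Lig1, the DNA ligase of the lagging strand, had 90.5, 95.8 and 98.3 TPM with proflavine and 162, 161 and 166 TPM with DMSO, a log2 fold change of -0.78 ± 0.03 (SE, limma adjusted p = 4.1e-11). None of these groups overlapped.

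E2f1 had 45.6, 44.0 and 41.4 TPM with proflavine, against 66.5, 67.8 and 67.5 TPM with DMSO, and fell with -0.61 ± 0.04 (SE, limma adjusted p = 7.9e-09). Tk1 had 148, 154 and 149 TPM with proflavine against 222, 234 and 229.8 TPM with DMSO (-0.60), and Chaf1b had 75.5, 78.7 and 76.9 TPM against 107, 112 and 113 TPM (-0.51). All 3 RPA subunits fell, with -0.52 for Rpa1, -0.14 for Rpa2 and -0.49 for Rpa3.

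Summed fibroblast markers were 3308 to 3456 TPM with proflavine and 5107 to 5143 TPM with DMSO, and adipocyte markers 59.96 to 66.9 TPM and 18.5 to 26.6 TPM. Macrophage and leukocyte markers were 9.84 to 10.7 TPM with proflavine and 5.80 to 6.79 TPM with DMSO. The part of these in the values above was not tested.

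A few loading and activation factors rose with proflavine. Mcm10, which helps the loaded helicase to start unwinding, had 57.0, 54.4 and 56.7 TPM with proflavine and 36.2, 35.6 and 36.1 TPM with DMSO, a log2 fold change of 0.63 ± 0.04 (SE, limma adjusted p = 1.5e-09). Orc1 had 20.8, 20.3 and 21.0 TPM with proflavine against 16.6, 15.2 and 16.1 TPM with DMSO (0.35 ± 0.06 SE, limma adjusted p = 0.00013), and Orc6 rose with 0.12. Mcm3 had 285, 273 and 276 TPM with proflavine and 251, 247 and 256 TPM with DMSO and rose with 0.15 ± 0.03 (SE, limma adjusted p = 0.00048), while Mcm4, Mcm5, Mcm6 and Mcm7 fell (-0.48, -0.32, -0.32 and -0.38). Cdc6 had 41.1, 38.7 and 40.4 TPM with proflavine, close to its DMSO values, and its log2 fold change of 0.07 did not pass the test (limma adjusted p = 0.44). Median-ratio scaling gave 0.15 and a call for Cdc6. The call of Rrm2 (0.09) was lost in 9 of 15 fits without 1 library and that of Cdc45 (-0.12) in 1 of them, without DMSO library 2. The other 34 of 36 calls were kept in each. Of the 54 further replication genes 24 fell and 14 rose (44.4% and 25.9%), which is near the shares of all genes. Of the 38 mitosis and G2/M genes 24 fell and 3 rose (63.2% and 7.89%).

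Ponatinib lowered 24 members, against 21.4% of all genes tested, and raised 8, against 41.1%. The members' median log2 fold change was -0.12 and that of all genes 0.097. Median-ratio scaling, which shifted the median of all genes by -0.11, gave 2 higher and 32 lower. Cdc6 had 21.3, 21.4 and 22.2 TPM with ponatinib and 38.2, 37.2 and 38.9 TPM with DMSO, a log2 fold change of -0.79 ± 0.08 (SE, limma adjusted p = 5.4e-07). Rrm2 had 133, 132 and 136 TPM with ponatinib against 221, 219 and 215 TPM with DMSO (-0.70 ± 0.04 SE, limma adjusted p = 5.8e-10), and Ccne2 had 27.2, 25.3 and 29.1 TPM against 42.6, 41.5 and 40.5 TPM (-0.59 ± 0.06 SE, limma adjusted p = 4.2e-07). These 3 groups of libraries did not overlap with DMSO. Chaf1b, the middle subunit of CAF-1 (chr16:93883901-93906115, plus strand), went the other way, with 151, 152 and 151 TPM with ponatinib and 107, 112 and 113 TPM with DMSO (0.46 ± 0.04 SE, limma adjusted p = 5.1e-08). Pola2, the accessory subunit of polymerase alpha, rose with 0.27 ± 0.06 (SE, limma adjusted p = 0.0008), and E2f1 with 0.19 ± 0.04 (SE, limma adjusted p = 0.0018).

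Within the helicase, ponatinib lowered Mcm3, Mcm4, Mcm5 and Mcm7 (-0.19, -0.25, -0.31 and -0.17). Mcm6 had 0.04 and was not called. Mcm2 had 312, 311 and 314 TPM with ponatinib against 280.2, 283 and 297 TPM with DMSO and was called higher (0.12 ± 0.05 SE, limma adjusted p = 0.034), but the call was lost with median-ratio scaling (0.0062 on the log2 scale), with no filter on low values and without DMSO library 1 or 2 or any ponatinib library. Of the 32 calls, 26 were kept whichever library was left out. Those lost were Mcm2, Gins1, Gins4, Pold3, Rfc2 and Rpa2.

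Nintedanib lowered 22 members, against 22.1% of all genes tested, and raised 7, against 34.3%. Its members' median of -0.084 stood beside 0.04 for all genes. The split depended on scaling, with 5 higher and 34 lower after median-ratio scaling and 5 and 32 after quantile normalization, which moved the median of all genes by -0.11. Cdc6 had 23.8, 26.4 and 25.7 TPM with nintedanib and 38.2, 37.2 and 38.9 TPM with DMSO (-0.57 ± 0.08 SE, limma adjusted p = 1.7e-05). Mcm5 had 167, 175 and 179 TPM with nintedanib and 242, 242 and 244 TPM with DMSO (-0.48 ± 0.04 SE, limma adjusted p = 2.8e-08). Both were lower in every nintedanib library.

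Chaf1b had the largest rise of the 46 with any drug. It had 185, 181 and 186 TPM with nintedanib and 107, 112 and 113 TPM with DMSO, a log2 fold change of 0.73 ± 0.04 (SE, limma adjusted p = 3.1e-10). Its partner Chaf1a fell, with -0.26 ± 0.03 (SE, limma adjusted p = 1.4e-05). Pcna had 1139, 1148 and 1159 TPM with nintedanib against 918, 957 and 975 TPM with DMSO and rose with 0.27 ± 0.04 (SE, limma adjusted p = 1.6e-05), E2f1 had 78.4, 79.5 and 78.7 TPM against 66.5, 67.8 and 67.5 TPM and rose with 0.23 ± 0.04 (SE, limma adjusted p = 0.00041), and Orc1 rose with 0.24. Of the 29 calls 21 were kept whichever library was left out. Those lost were Ccne1, Gins1, Lig1, Mcm3, Pold1, Rfc2, Rpa2 and Tk1. Without 1 library the number of members called ran between 21 and 33. The summed fibroblast markers were 3195 to 3246 TPM with nintedanib and 3380 to 3546 TPM with ponatinib, and those of macrophages and leukocytes 16.8 to 18.7 TPM and 16.0 to 19.1 TPM, against 5107 to 5143 TPM and 5.80 to 6.79 TPM with DMSO. The adipocyte markers were 31.6 to 38.8 TPM with nintedanib and 10.3 to 12.3 TPM with ponatinib, against 18.5 to 26.6 TPM with DMSO. The epithelial markers were 1.68 to 17.6 TPM with nintedanib, highest in library 3, and 1.122 to 1.80 TPM with ponatinib, against 1.18 to 1.81 TPM with DMSO. Their part in these results was not tested. Mitosis and G2/M genes were lower with both kinase inhibitors, which share their DMSO libraries: 36 of 38 fell with nintedanib (median -0.38) and 36 of 38 with ponatinib (median -0.41).

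Nintedanib was given at 3 µM and ponatinib at 1 µM, so the difference between their libraries is between drugs at unequal doses. Nintedanib libraries were higher than ponatinib libraries in 16 members, against 26.1% of all genes, and lower in 11, against 33.8%. The widest gaps were in Orc1 (0.54), Ccne2 (0.50) and Rrm2 (0.42). Proflavine at 3 µM was higher than pyrvinium at 1 µM in 29 members, against 36.7% of all genes, and lower in 9, against 41.1%. Cdc6 (1.58), Rrm2 (1.41) and Ccne2 (1.13) were the furthest above and Rfc5 (-0.66) and Pold1 (-0.62) the furthest below. The limma adjusted p was 6.7e-11 for Cdc6 and 5e-08 for Rfc5.

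In tunicamycin the E-type cyclins and the enzymes of nucleotide supply Rrm1, Rrm2 and Tk1 fell in each of the 4 kinds of cells, those with control siRNA, Son siRNA, control sgRNA and Son sgRNA. With control siRNA it lowered 31 of the 46 members, against 42.4% of the 10883 genes tested, and raised 7, against 26.6%. The members' median was -0.15 and that of all genes -0.061. With Son siRNA it again lowered 31, against 41.1%, and raised 7, against 26.1%, with medians of -0.14 and -0.054. Of the genes lowered, 28 were lowered in both, which was 90.3% of either list, and 6 were raised in both. These comparisons share no library. The overlap over all genes was not counted.

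Ccne1 had 10.96, 11.8, 11.7 and 9.98 FPKM in tunicamycin and 18.9, 20.6, 19.5 and 21.6 FPKM in DMSO with control siRNA, a log2 fold change of -0.81 ± 0.05 (SE, limma adjusted p = 2.2e-10). With Son siRNA it had 12.1, 12.9, 13.2 and 13.0 FPKM in tunicamycin and 19.2, 19.8, 20.3 and 20.3 FPKM in DMSO, which gave -0.60. Every tunicamycin library was below every DMSO library. Ccne2 had 10.2, 9.62, 10.9 and 10.4 FPKM in tunicamycin and 16.5, 16.7, 16.6 and 16.6 FPKM in DMSO with control siRNA (-0.64 ± 0.04 SE, limma adjusted p = 2.5e-10). Rrm2 had 70.4, 70.3, 73.4 and 65.6 FPKM in tunicamycin against 114, 104, 114 and 112 FPKM in DMSO (-0.66 ± 0.04 SE, limma adjusted p = 6.1e-11), and Tk1 had 77.0, 76.8, 79.3 and 64.3 FPKM against 115, 115, 113 and 115 FPKM (-0.62 ± 0.05 SE, limma adjusted p = 6.4e-09). Library D in tunicamycin was the lowest for Tk1 and for Ccne1. Pcna, the most abundant member, fell with -0.37 and had 337, 327, 329 and 317 FPKM in tunicamycin and 403, 429, 427 and 433 FPKM in DMSO.

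Some licensing and activation genes moved the opposite way. Cdc6 had 29.3, 28.9, 28.4 and 31.7 FPKM in tunicamycin and 18.9, 19.7, 20.4 and 19.6 FPKM in DMSO with control siRNA, a log2 fold change of 0.56 ± 0.03 (SE, limma adjusted p = 1.3e-10). With Son siRNA it had 28.4, 28.6, 29.2 and 29.5 FPKM in tunicamycin against 19.4, 19.6, 19.5 and 19.8 FPKM in DMSO (0.54 ± 0.03 SE, limma adjusted p = 3.5e-10). Cdt1 had 72.4, 73.3, 76.0 and 70.6 FPKM in tunicamycin and 60.4, 63.1, 60.4 and 64.2 FPKM in DMSO with control siRNA (0.23 ± 0.03 SE, limma adjusted p = 4.2e-06). Cdc45, which joins the helicase when it is switched on, rose with 0.27 ± 0.03 (SE, limma adjusted p = 3.2e-06), and Pold2, the second subunit of polymerase delta, with 0.28 ± 0.05 (SE, limma adjusted p = 6.8e-05). Thus 2 of the 4 licensing genes rose with control siRNA, while Orc1 and Orc6 fell (-0.23 and -0.08). The small fall of Orc6 was not seen with control sgRNA, where it had 51.5, 50.7 and 49.0 FPKM in tunicamycin. Its levels there in DMSO were 44.6, 42.6 and 44.6 FPKM, and the difference was not called.

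Of the helicase subunits, Mcm2 rose with control siRNA, with 128, 125, 128 and 135 FPKM in tunicamycin and 113, 117, 116 and 119.7 FPKM in DMSO (0.15 ± 0.03 SE, limma adjusted p = 9.3e-05). The other 5 were called lower by small amounts, between -0.07 for Mcm7 and -0.15 for Mcm5, with Mcm3 and Mcm4 at -0.14 and -0.14. Mcm6 (-0.09) lost its call without control siRNA DMSO library B or tunicamycin library D, and under quantile normalization its value was 0.019. Mcm7 lost its call under median-ratio scaling (-0.0090) and quantile normalization, and both lost it in a fit of only the compared groups. Leaving out any 1 library kept 36 of the 38 calls, all but Mcm6 and Pole. Of 38 mitosis and G2/M genes 38 fell with control siRNA (median -0.40) and 37 with Son siRNA, and of 54 further replication genes 30 fell and 10 rose with control siRNA. The summed fibroblast markers were 1191 to 1507 FPKM in tunicamycin and 2081 to 2147 FPKM in DMSO with control siRNA, and their part in these values was not tested.

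E2f1 had 24.6, 23.6, 24.9 and 24.4 FPKM in tunicamycin and 25.9, 28.9, 26.8 and 30.0 FPKM in DMSO with control siRNA (-0.19 ± 0.05 SE, limma adjusted p = 0.0018). Uhrf1 had 85.2, 80.4, 84.3 and 73.1 FPKM in tunicamycin and 104, 104, 107 and 108 FPKM in DMSO (-0.39 ± 0.04 SE, limma adjusted p = 3.8e-07). Both were lower in every tunicamycin library. Mcm5 had 90.3, 90.4, 94.5 and 89.8 FPKM in tunicamycin and 98.9, 102, 101 and 104 FPKM in DMSO, and Mcm3 had 98.7, 98.1, 101 and 96.8 FPKM against 105, 108, 112 and 111 FPKM. Fen1 and Lig1 fell with -0.30 and -0.29, and all of the clamp loader subunits but Rfc1 and Rfc4 fell, between -0.15 for Rfc3 and -0.27 for Rfc2.

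In the CRISPRa experiment tunicamycin lowered 11 members with control sgRNA, against 14.1% of the 11218 genes tested, and raised 5, against 24.2%. The members' median was -0.025 and that of all genes 0.05. All 11 of the lowered genes were also lowered with control siRNA, which was 35.5% of the 31 there: Ccne1, Ccne2, E2f1, Rrm1, Rrm2, Tk1, Pcna, Rpa1, Fen1, Lig1 and Uhrf1. Cdc6, Cdt1, Cdc45 and Rfc4 were raised in both. For all genes this overlap was not counted. Ccne2 had 9.70, 9.22 and 9.19 FPKM in tunicamycin and 15.1, 14.5 and 14.9 FPKM in DMSO (-0.61 ± 0.08 SE, limma adjusted p = 0.00011), and Rrm2 had 40.6, 42.6 and 39.9 FPKM against 63.9, 62.7 and 61.2 FPKM (-0.60 ± 0.05 SE, limma adjusted p = 7.1e-06). Cdc6 had 19.9, 20.3 and 19.3 FPKM in tunicamycin and 14.8, 15.5 and 14.7 FPKM in DMSO (0.39 ± 0.06 SE, limma adjusted p = 0.00033). None of these groups overlapped.

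The number called with control sgRNA depended on which libraries were in the fit, both of the compared pair of groups and of the others. It was 16 of 46 with all 4 groups, 33 with only the compared pair of groups, 30 without library C of Son sgRNA in DMSO, and 10 without control sgRNA DMSO library C. Median-ratio scaling gave 3 higher and 16 lower. Leaving out 1 library kept 10 of the 16 calls each time and lost those of Ccne1, E2f1, Fen1, Gins3, Lig1 and Rfc4 at least once. Mcm2 had 164, 168 and 167 FPKM in tunicamycin and 150.5, 151 and 153 FPKM in DMSO with control sgRNA, and its log2 fold change of 0.13 was not called (limma adjusted p = 0.056).

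With Son sgRNA, tunicamycin lowered 23 members, against 26.6%, and raised 3, against 22.7%. The members' median was -0.15 and that of all genes -0.0082. Quantile normalization gave 7 higher and 17 lower, and a fit of the compared pair of groups alone called 13. Rrm2 (-0.80 ± 0.05 SE, limma adjusted p = 5e-07), Ccne2 (-0.71 ± 0.08 SE, limma adjusted p = 2.4e-05) and Tk1 (-0.67 ± 0.07 SE, limma adjusted p = 1.8e-05) had the largest falls. Tk1 had 72.6, 69.9 and 67.8 FPKM in tunicamycin and 104, 106 and 128 FPKM in DMSO with Son sgRNA. Leaving out 1 library kept 20 of the 26 calls and lost Gins2, Mcm3, Mcm7, Pold3, Pole and Prim1 at least once, and the number called was 30 without library C of the DMSO group. The summed fibroblast markers were 854 to 967 FPKM in tunicamycin and 1347 to 1465 FPKM in DMSO with Son sgRNA, and 1129 to 1189 FPKM and 1513 to 1636 FPKM with control sgRNA. Their part was not tested.

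**Figure D3:**
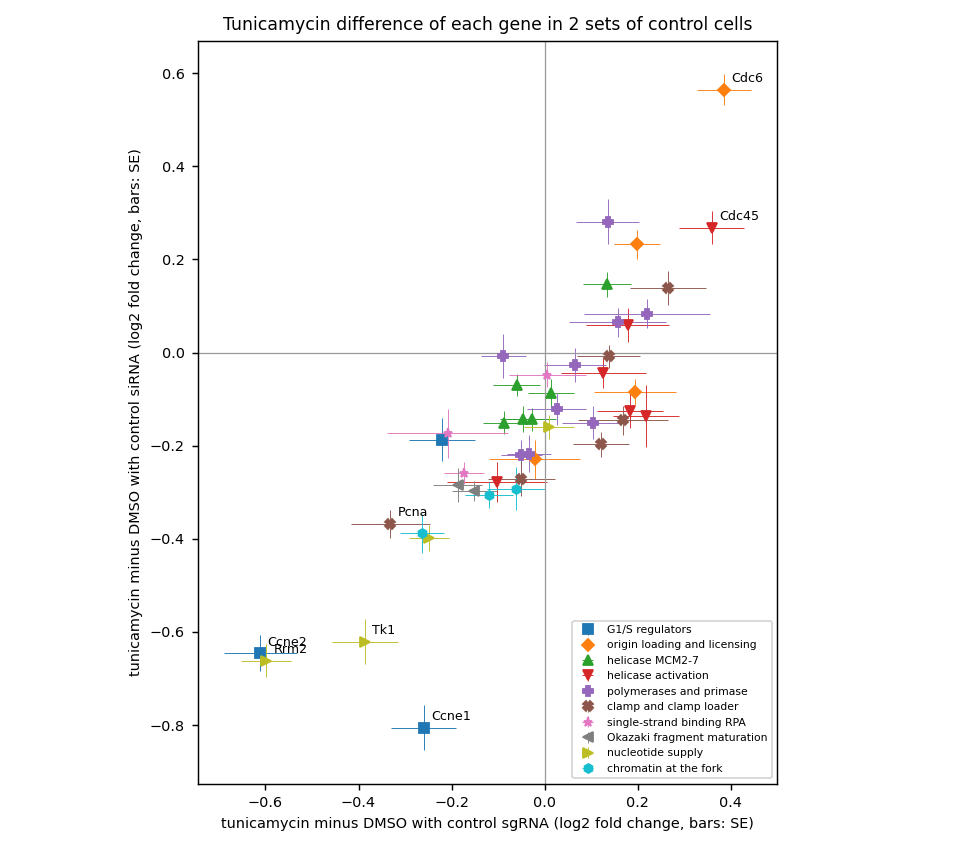
Log2 fold change of each of the 46 genes in tunicamycin against DMSO, with control sgRNA on the x axis and control siRNA on the y axis. Points are genes by role and bars are SE. Cdc6 and Cdc45 lie at the upper right and Ccne2, Rrm2, Tk1 and Ccne1 at the lower left.

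Son siRNA lowered some members and raised others. In DMSO 8 fell, against 16.1% of the genes tested, and 6 rose, against 20%, and the median of 0.021 was near the 0.025 of all genes. Quantile normalization gave 11 higher and 8 lower. In tunicamycin 11 fell, against 20.4%, and 16 rose, against 30.6%, with medians of 0.035 and 0.039. The 8 and 6 genes in DMSO and the 11 and 16 in tunicamycin are shares of the 46 near those of all genes. All 8 genes lowered in DMSO were lowered in tunicamycin as well (72.7% of the 11): Cdt1, Gins2, Pola2, Pold1, Pole, Lig1, Tk1 and Uhrf1. Pole2, Rfc2, Fen1 and Ccne2 were raised in both, which was 66.7% of the 6 and 25.0% of the 16. These overlaps were not counted over all genes.

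Pold1 had 15.4, 16.6, 16.1 and 13.7 FPKM with Son siRNA and 25.1, 25.3, 26.5 and 25.1 FPKM with control siRNA in tunicamycin, a log2 fold change of -0.69 ± 0.05 (SE, limma adjusted p = 7.4e-09). In DMSO it had 17.4, 18.4, 16.9 and 17.7 FPKM with Son siRNA and 24.2, 26.8, 25.2 and 26.3 FPKM with control siRNA (-0.52 ± 0.05 SE, limma adjusted p = 4e-07). Every Son siRNA library was below every control library in both conditions. Pole, the catalytic subunit of polymerase epsilon, fell by less, with -0.25 in tunicamycin and -0.20 in DMSO, while its partner Pole2 rose with 0.21 and 0.16. Pola2 fell with -0.16 and -0.15, while Pola1, the catalytic subunit of polymerase alpha, was not called in either condition (0.06 and 0.04).

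Uhrf1 had 59.6, 62.7, 64.7 and 60.7 FPKM with Son siRNA and 85.2, 80.4, 84.3 and 73.1 FPKM with control siRNA in tunicamycin (-0.38 ± 0.04 SE, limma adjusted p = 1.9e-06), and 82.4, 83.0, 86.4 and 78.8 FPKM against 104, 104, 107 and 108 FPKM in DMSO (-0.35 ± 0.04 SE, limma adjusted p = 7.5e-06). Gins2, a subunit of the GINS helicase activator, had 46.02, 44.3, 46.6 and 42.2 FPKM with Son siRNA against 58.3, 53.2, 58.6 and 53.9 FPKM with control siRNA in tunicamycin (-0.32), and 53.6, 56.4, 56.9 and 51.8 FPKM against 70.2, 69.7, 64.3 and 68.2 FPKM in DMSO (-0.31). Both genes were lower in all Son siRNA libraries. Cdt1 fell with -0.29 ± 0.03 (SE, limma adjusted p = 1.1e-06) in tunicamycin and -0.17 ± 0.03 (SE, limma adjusted p = 0.00044) in DMSO. Lig1 fell with -0.26 and -0.23, while Fen1, which acts just before it, had 68.8, 69.2, 67.4 and 68.5 FPKM with Son siRNA and 61.4, 61.5, 62.5 and 61.4 FPKM with control siRNA in DMSO and rose (0.15 ± 0.02 SE, limma adjusted p = 4.7e-05).

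Ccne2 had 14.5, 13.0, 13.3 and 13.8 FPKM with Son siRNA and 10.2, 9.62, 10.9 and 10.4 FPKM with control siRNA in tunicamycin, a log2 fold change of 0.38 ± 0.04 (SE, limma adjusted p = 6.9e-07). In DMSO it had 17.6, 19.2, 18.0 and 18.9 FPKM with Son siRNA and 16.5, 16.7, 16.6 and 16.6 FPKM with control siRNA (0.14 ± 0.04 SE, limma adjusted p = 0.0093). The groups did not overlap in either condition. Ccne1 rose in tunicamycin (0.19 ± 0.05 SE, limma adjusted p = 0.0034) and was not called in DMSO (-0.01). Rrm1 and Rrm2 rose in tunicamycin with 0.19 and 0.15. The helicase changed little: Mcm5 rose in tunicamycin with 0.09, a call lost under quantile normalization, Mcm3 rose with 0.08 but lost its call in 3 fits without 1 library, and no subunit was called in DMSO. Of the 27 calls in tunicamycin 22 were kept in every fit without 1 library and of the 14 in DMSO 12. Those lost were Cdc45, Mcm3, Pold3, Prim2 and Rfc3 in tunicamycin, and Gins1 and Rpa2 in DMSO. Of 38 mitosis and G2/M genes 29 rose and 2 fell with Son siRNA in tunicamycin (median 0.18).

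The tunicamycin difference itself was compared between Son siRNA and control siRNA cells. Of the members 2 were called higher, against 0.827% of genes, and 0 lower, against 0.855%. Tk1 had 62.6, 61.5, 62.4 and 59.7 FPKM in tunicamycin and 76.5, 80.0, 75.8 and 73.6 FPKM in DMSO with Son siRNA, and 77.0, 76.8, 79.3 and 64.3 FPKM in tunicamycin and 115, 115, 113 and 115 FPKM in DMSO with control siRNA. Its fall in tunicamycin was smaller with Son siRNA, where the DMSO level was lower too, and the difference was 0.31 ± 0.07 (SE, limma adjusted p = 0.033). That of Ccne2 was 0.24 ± 0.05 (SE, limma adjusted p = 0.039). Neither call held under every alternative. With no filter on low values 0 of 46 were called, and without 1 library the number ran between 0 and 3. It was 0 without control siRNA DMSO library A, C or D, without any Son siRNA DMSO library, and without Son siRNA tunicamycin library A or D.

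**Figure D4:**
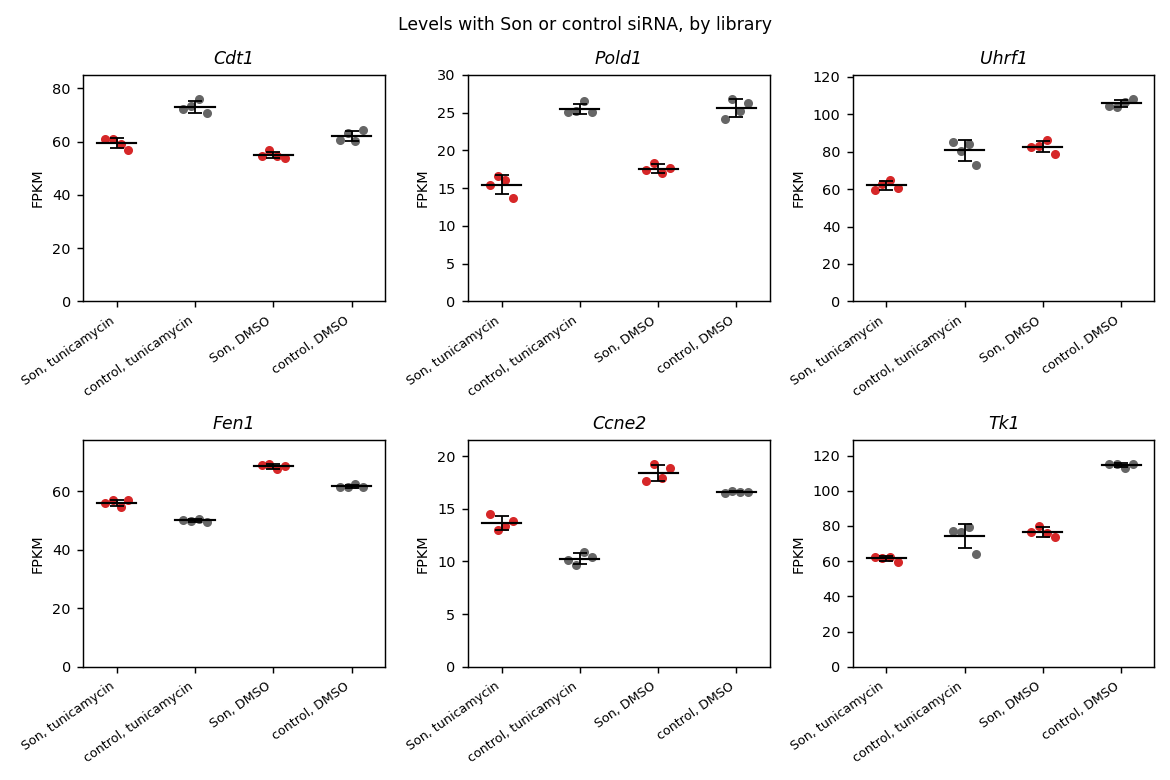
FPKM of 6 replication genes in each siRNA library (points, 4 per group), with the mean (line) and SD (bars), Son siRNA left of control siRNA within tunicamycin and DMSO. Cdt1, Pold1, Uhrf1 and Tk1 are lower and Fen1 and Ccne2 higher with Son siRNA in both conditions.

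In the libraries labelled Son sgRNA, 8 members were higher than with control sgRNA in DMSO, against 9.11% of genes, and 0 were lower, against 5.29%. The members' median was 0.097 and that of all genes 0.047. Prim1, the catalytic primase subunit (chr10:128015168-128030037, plus strand), had 68.0, 69.1 and 79.3 FPKM with Son sgRNA and 54.3, 51.8 and 52.6 FPKM with control sgRNA (0.44 ± 0.06 SE, limma adjusted p = 0.001). Ccne1 had 25.7, 25.7 and 28.8 FPKM with Son sgRNA and 21.3, 18.6 and 21.0 FPKM with control sgRNA (0.38 ± 0.07 SE, limma adjusted p = 0.0049), and Tyms, thymidylate synthase, rose with 0.31 ± 0.05 (SE, limma adjusted p = 0.0032). These 3 calls were kept in every fit without 1 library, and those of Fen1, Mcm6, Pcna, Rfc5 and Rrm2 were not. In tunicamycin 1 was higher, Prim1, against 2.59% of genes, and 1 lower, Cdt1, against 6.86%. Prim1 had 64.5, 60.01 and 66.5 FPKM with Son sgRNA and 53.5, 53.1 and 55.0 FPKM with control sgRNA in tunicamycin (0.24 ± 0.06 SE, limma adjusted p = 0.036), and Cdt1 had 69.1, 69.1 and 75.1 FPKM against 77.5, 83.4 and 80.2 FPKM (-0.18 ± 0.05 SE, limma adjusted p = 0.045). Neither call was kept whenever a library was left out, and with median-ratio scaling 2 were higher and 0 lower.

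Library C of Son sgRNA in DMSO differed from libraries A and B of its group in a way that followed transcript length. The summed FPKM was 498414 in it and 380638 at the lowest among the 12 CRISPRa libraries. Rpa3, the smallest RPA subunit with a longest transcript of 670 bases, had 100.7 FPKM in library C and 65.7 and 68.2 FPKM in A and B. Pole, with 7163 bases, had 11.3 FPKM in library C and 18.6 and 16.0 FPKM in A and B. Across the 46 members the log2 difference of C from the mean of A and B had a Spearman rho of -0.76 with transcript length, which is a description over genes that share these 3 libraries. Short transcripts tended to be high and long ones low in that library. Its part in the comparisons was measured by leaving it out. In DMSO 11 members were then higher and 0 lower with Son sgRNA. In tunicamycin, where it enters only through the shared spread, 2 were higher and 7 lower. Without Son sgRNA DMSO library A 14 were higher and 2 lower, and without a control sgRNA DMSO library 3 or 4 were higher. The split in DMSO was 6 higher and 1 lower with median-ratio scaling and 7 and 2 with quantile normalization, and 3 were higher with only the pair of groups compared.

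**Figure D5:**
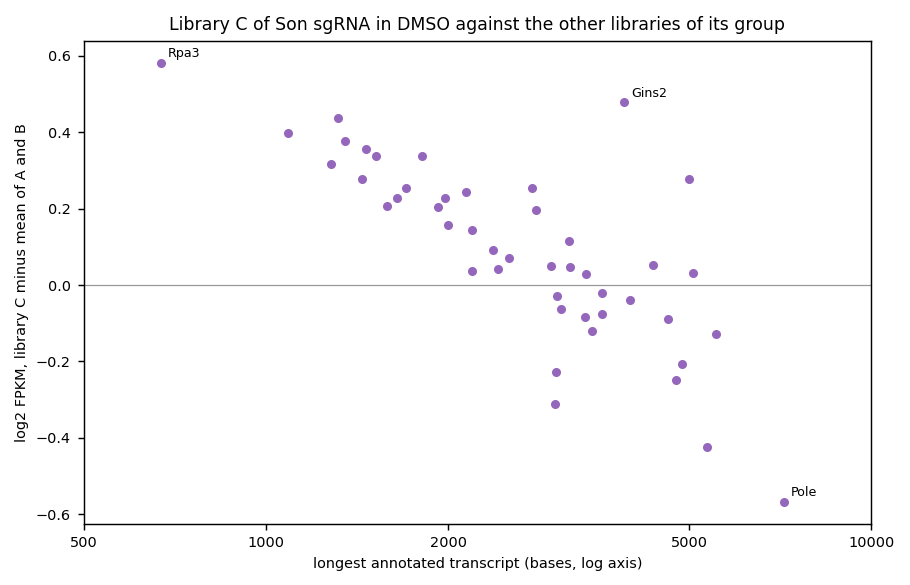
Log2 FPKM of library C of Son sgRNA in DMSO minus the mean of libraries A and B, for each of the 46 genes (points), against the length of its longest annotated transcript in bases (log axis). Rpa3 is the highest point at 0.58 and Pole the lowest at -0.57.

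Between Son sgRNA and control sgRNA the tunicamycin difference was called in 0 of 46 members by limma, against 0% of genes in either direction, and at an unadjusted p under 0.05 in 13, all lower, against 8.09% of genes in either direction. Under median-ratio scaling 2 members passed that unadjusted p and under quantile normalization 3, and the members' median of -0.14 became -0.068 and -0.041. Without library C it was again 0. The log2 fold changes had a Spearman rho of 0.60 with transcript length over the 46 members, and that of the Son sgRNA difference in DMSO was -0.51, both of which use library C.

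The order of the levels was similar in the controls of each experiment. Per length, Pcna was the most abundant of the 46 in all 13 groups, with 423 ± 13.6 FPKM in control siRNA DMSO, 339.8 ± 4.10 FPKM in control sgRNA DMSO (SD, n = 4 and n = 3 libraries) and 949.9 ± 28.9 TPM in wild-type DMSO libraries (SD, n = 3). Mcm2, Mcm6 and Mcm7 were the next 3 in all of these. Orc1 and Gins3 were the lowest 2, Gins3 with a mean of 8.8 and 8.0 FPKM in the siRNA and sgRNA controls. Even the lowest member thus lay well above the minimum mean of 1 used for the tests.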

How the data were processed

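Polyadenylated RNA of mouse embryonic fibroblasts was sequenced from stranded libraries, per the labels' protocols. The FPKM values of 28 siRNA and CRISPRa libraries and the TPM values of 15 drug libraries were deposited by the authors already normalized. The submitters' processing notes name Trimmomatic, Trim Galore, HISAT2, Salmon, Cufflinks and the build mm10, without versions. Neither unit holds counts, so no count test was run. In the FPKM table, 27 lines named by a date were left out, and of 275 symbols on more than 1 line the one with the highest mean was kept.

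Within each experiment, symbols with a mean of at least 1 were tested on log2(value + 1) with limma 3.58.1 (R 4.3.3), with a mean-variance trend and all groups in 1 fit without a block. Fold changes on this scale understate the change of low genes. P-values were two-sided and adjusted by the Benjamini-Hochberg method over all genes of a comparison, and a gene was called at an adjusted p under 0.05. There were 16 comparisons. The procedure was also run on simulated data with independent noise and few changed genes. Those differ from the data here, where many genes were called, and no result rests on that run. Summaries and plots used Python 3.11.15, pandas 2.3.3, scipy 1.17.1, numpy 2.4.6 and matplotlib 3.10.9.

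The members, the lists of other cell-cycle genes and the alternatives were chosen with earlier results of these data known. Levels per library were to be given for a set of 14 genes and, in each comparison, for up to 3 further called members of largest fold change in each direction, and the others by counts and ranges. Alternatives were a pseudocount of 0.1, no filter, median-ratio scaling, quantile normalization, only the compared groups, leaving out each library, and a block on the replicate number in the drug experiment. A block on the library letter in the others was added after seeing the data. In the drug experiment, libraries of the same number had correlations of their deviations from the group means between -0.067 and 0.15. Those of other numbers lay between -0.14 and 0.15, so the numbers were not taken as pairs. Gene positions are from GENCODE M21 on GRCm38 and promoters from RefSeq on GRCm38.p6.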

Additional observations from a re-analysis of the deposited data

Results flagged for a closer look

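In the siRNA experiment 13 of 164 gene-by-group sets of 4 libraries had 1 library far from the other 3, where chance gives about 1 in 20, or 8.2 sets. In tunicamycin with Son siRNA, Mcm7 had 138 FPKM in library B against 142 FPKM in each of the others, Prim1 had 41.8 FPKM in library B against 44.9 to 45.4 FPKM, Rfc4 had 31.8 FPKM in library C against 34.3 to 34.5 FPKM, and Chaf1b had 32.0 FPKM in library D against 35.7 to 36.1 FPKM. In tunicamycin with control siRNA, Tk1 had 64.3 FPKM in library D against 76.8 to 79.3 FPKM, which was the widest of these gaps relative to its level. In the same group Mcm5 had 94.5 FPKM in library C against 89.8 to 90.4 FPKM, Pold1 had 26.5 FPKM in library C against 25.1 to 25.3 FPKM, and Orc6 had 47.4 FPKM in library A against 44.0 to 44.3 FPKM.

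In DMSO with Son siRNA, Mcm7 had 154 FPKM in library B against 148 to 149 FPKM in the others, and Pola2 had 31.5 FPKM in library A against 32.6 FPKM in each of the others. In DMSO with control siRNA, Mcm10 had 18.7 FPKM in library B against 20.8 to 21.0 FPKM, Fen1 had 62.5 FPKM in library C against 61.4 to 61.5 FPKM, and Tk1 had 113 FPKM in library C against 115 FPKM in each of the others.

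The tunicamycin difference of 2 genes differed between Son siRNA and control siRNA cells by a tested interaction. It was 0.31 on the log2 scale for Tk1 and 0.24 for Ccne2, both smaller falls with Son siRNA, and neither call was kept in every fit without 1 library.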

How the results depend on the processing

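The members' counts of calls stayed within 1.5 times the main count in most alternatives. With no filter on low values the interaction in siRNA cells had 0 members called. With only the compared groups, 3 members were called for Son sgRNA in DMSO, 33 for tunicamycin with control sgRNA and 13 for tunicamycin with Son sgRNA. Leaving out 1 library moved the counts between 0 and 3 for the siRNA interaction, 3 and 16 for Son sgRNA in DMSO, 0 and 9 for Son sgRNA in tunicamycin, and 10 and 30 for tunicamycin with control sgRNA. For the siRNA interaction the count was 1 without control siRNA tunicamycin library B or Son siRNA tunicamycin library B. The 16 for Son sgRNA in DMSO were reached without library A of that group, and the 9 and 30 without library C of it. For Son sgRNA in tunicamycin the count was 0 without any control sgRNA library or Son sgRNA tunicamycin library A. Among values called in either fit, signs turned under quantile normalization for Mcm6 in tunicamycin with control siRNA (0.019) and for Mcm3 (0.018) and Mcm7 (0.041) in tunicamycin with Son sgRNA, and in no other alternative. Values called in neither fit turned sign 13 times under median-ratio scaling, 19 times under quantile normalization and 31 times when a library was left out. Of 4295 values of single genes without 1 library, 4132 kept their side of the threshold, 142 lost a call, 21 gained one and 0 called values turned. Pseudocount 0.1 changed none of 297. The causes were not tested.

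The FPKM columns of the siRNA and CRISPRa experiments carry letters that no label ties to replicate numbers, so no fit paired by number was made there. A replicate block on the letter, added after seeing the data, called 1 member for Son sgRNA in tunicamycin. The other counts with it were within 1.5 times of those without it, and 3 of 180 single-gene values lost a call, those of Pcna for Son sgRNA in DMSO (adjusted p = 0.059), Cdt1 for Son sgRNA in tunicamycin (adjusted p = 0.073) and Mcm3 for tunicamycin with Son sgRNA (adjusted p = 0.052), by limma. Libraries of the same letter had correlations of their deviations between -0.19 and 0.17 in the siRNA and -0.22 and 0.18 in the CRISPRa experiment, and 4 of 16 and 4 of 12 correlated best with their own letter. In the drug experiment the replicate block gave 24 members called with nintedanib, 33 with ponatinib, 35 with proflavine and 39 with pyrvinium, and 7 of 15 libraries correlated best with their own number. The paired fit ended the calls of Mcm3 with nintedanib (adjusted p = 0.054) and Rrm2 with proflavine (adjusted p = 0.064) by limma, and no other of 117 values changed. Depth is unknown for TPM, and both units leave the counting error of low genes unseen.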

Other observations

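Beyond the replication genes, Ccnd1, the D-type cyclin that opens G1, moved in opposite directions between drugs. It averaged 67.0 ± 3.8 TPM with proflavine against 8.64 ± 0.035 TPM with DMSO (SD, n = 3 each), a log2 fold change of 2.82 with a limma adjusted p of 9.6e-12. With pyrvinium it averaged 1.62 ± 0.44 TPM (-1.89, limma adjusted p = 2.5e-10) and with ponatinib 2.89 ± 0.35 TPM (-1.31, limma adjusted p = 5.5e-08). With nintedanib it averaged 7.87 ± 0.63 TPM and was not called (-0.12, limma adjusted p = 0.35).

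Cdkn1a, the CDK inhibitor p21, rose with nintedanib to 176 ± 5.5 TPM and with ponatinib to 149.9 ± 2.4 TPM, against 101 ± 4.8 TPM with DMSO. Its mean was 85.5 ± 0.70 TPM with proflavine and 85.1 ± 13 TPM with pyrvinium, both below that of DMSO, with a wide SD for pyrvinium. Cdkn1a is described here by means and SD only. In tunicamycin it rose with control siRNA to 79.2 ± 2.7 FPKM, against 45.6 ± 4.4 FPKM in DMSO (SD, n = 4 each), and fell with control sgRNA to 43.0 ± 0.97 FPKM, against 64.0 ± 7.2 FPKM in DMSO (SD, n = 3 each). The difference between these experiments was not tested. Both genes belonged to the fixed list of D-type cyclins, CDKs and inhibitors.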
